A study of Rattus norvegicus with 98 samples.

Results

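Water placed in the nose was set against air breathed in a chamber, at the 6 h time point, in the nasal lining of rats. The comparison holds 8 of the 98 animals of the series, chosen by their labels: 4 rats given water into the nose (40 ul per nostril, animals 352, 354, 355 and 356) and 4 rats kept in air (0 ppm, whole-body inhalation, animals 321, 322, 323 and 325). The series also holds rats given 400 mM formaldehyde in 40 ul per nostril and rats that inhaled 15 ppm, 4 of each, which with the 8 make up array set 2 and are used below as context. Array set 1, which holds all other animals, supplied 21 further air animals, 4 of them at 6 h. All were male F344/NCrl rats, 8 weeks old, and each gave 1 Affymetrix array of log2 signals. The labels describe cells freed by protease from the lateral meatus and nasoturbinate, mostly transitional epithelium with some respiratory epithelium, after olfactory epithelium had been discarded. The sources used here do not say whether instilled rats were anaesthetised, and the liquid cannot be told apart from the handling that went with it.

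Water is the vehicle control of the instilled formaldehyde. The nasal lining moves salt and water through ion channels and aquaporins, clears its surface with cilia and mucus, and is renewed from basal cells. Injured epithelium is known to switch on immediate early genes and chemokines, while a hypotonic liquid makes cells swell and take up regulatory steps to restore their volume.

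Epithelial markers were high in all 8 arrays: Epcam, a pan-epithelial adhesion molecule, lay between 12.39 and 12.55 on the log2 scale, and Krt15, a basal keratin, between 13.47 and 13.81. Foxj1, the regulator of cilia genes, lay between 9.56 and 10.35. Olfactory RNA was present despite the dissection, since Omp, the marker of mature olfactory neurons, lay between 9.01 and 12.37, with a median above that of 96.6% of the 14217 genes. Among secretory genes Bpifa1 was high at 14.53 to 14.74, and Muc5ac, a mucin, lay between 9.03 and 11.20. Scgb1a1, a club cell gene, was low at 5.28 to 6.38. Among muscle genes Myh4, a myosin, lay between 3.28 and 3.95, Ckm between 5.23 and 6.93 and Acta1 between 4.22 and 8.42. The stromal genes Col1a1, Col3a1 and Dcn lay at 12.65 to 13.24, 10.24 to 11.70 and 9.65 to 10.30. Array medians ran from 5.96 to 6.02. Arrays correlated across probe sets at 0.989 to 0.994 within water, 0.9909 to 0.9946 within air and 0.9784 to 0.994 between the groups, the lowest value being that of water animal 354 with air animal 325. The RNA integrity number, a score of RNA intactness, was 7.5, 8.3, 8.2 and 8.2 in water animals 352, 354, 355 and 356, against 7.3, 7.4, 7.4 and 7.8 in air animals 321, 322, 323 and 325. The water mean was 0.575 higher (8.05 ± 0.37 in water and 7.48 ± 0.22 in air, SD, n = 4 each; two-sided exact permutation p = 0.0571, the smallest possible being 0.0286). OD260, an absorbance that measures RNA amount, averaged 3.69 ± 0.18 in water and 3.44 ± 0.46 in air (exact permutation p = 0.314).

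Few probe sets were called between water and air in the main fit. Of 31042 probe sets tested in limma, 4 rose and none fell at an adjusted p under 0.05, or 0.0129%. At an unadjusted p under 0.05 there were 3216 (10.4%), 1947 higher (6.27%) and 1269 lower (4.09%) in water. The groups did not overlap for 9.84% of probe sets, with all water animals above all air animals for 5.3% and below them for 4.54%. The 3 called probe sets with a gene were those of Hs3st1, Lig1 and Ipo7 (3 of 14217 genes, 0.0211%), and the other called probe set has no listed gene. Leaving out 1 animal gave 15 calls without water animal 352, 1 call each without water animals 354 and 356 and air animal 321, and 2 each without air animals 322 and 325. A fit on the 16 arrays of array set 2 called none, with 3723 at an unadjusted p under 0.05, 1875 higher and 1848 lower. A fit on the 8 arrays alone called 129, 67 higher and 62 lower, with 2677 higher and 2526 lower at an unadjusted p under 0.05. The higher and lower counts were thus closer to each other in both of these fits. Fitted to the air animals of array set 1 instead, water differed at 2002 probe sets, where the array set and the group cannot be told apart.

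The promoters of the 3 called genes are shown because these are the only named genes called between water and air. The sequences are RefSeq's, build GRCr8, each 250 bases before to 50 bases after the transcription start on the plus strand: Hs3st1 at chr14:75398723-75399022, Lig1 at chr1:83242920-83243219 and Ipo7 at chr1:173497222-173497521. Both strands were searched for CACGTG (E-box), TTATGNAA and TTACGTAA (D-box), TGANTCA (AP-1), TGACGTCA (CRE), TGACNNNGC (antioxidant response element) and, given here by name, simplified forms of the glucocorticoid response element, the NF-kappaB site, the heat shock element and the interferon-stimulated element. These are held by 6.42%, 3.66%, 0.12%, 7.33%, 1.83%, 12.1%, 0.0149%, 19.3%, 0.798% and 3.92% of the 33469 promoters of this length, in that order. Capitals mark the only match, the E-box of Ipo7, whose first base stands at −88 from the start and which overlaps no other motif. The windows of Hs3st1 and Lig1 held no match.
Hs3st1: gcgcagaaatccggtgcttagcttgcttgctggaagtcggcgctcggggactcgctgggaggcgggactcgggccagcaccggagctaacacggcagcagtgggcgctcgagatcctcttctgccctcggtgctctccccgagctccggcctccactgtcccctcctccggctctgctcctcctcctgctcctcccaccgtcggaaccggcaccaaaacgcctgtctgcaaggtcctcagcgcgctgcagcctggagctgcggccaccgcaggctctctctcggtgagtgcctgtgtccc
Ipo7: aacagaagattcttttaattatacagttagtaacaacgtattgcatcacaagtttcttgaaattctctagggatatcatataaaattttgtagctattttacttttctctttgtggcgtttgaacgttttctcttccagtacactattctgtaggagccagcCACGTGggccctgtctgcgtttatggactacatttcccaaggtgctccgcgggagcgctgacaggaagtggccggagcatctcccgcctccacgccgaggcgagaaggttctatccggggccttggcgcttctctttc
Lig1: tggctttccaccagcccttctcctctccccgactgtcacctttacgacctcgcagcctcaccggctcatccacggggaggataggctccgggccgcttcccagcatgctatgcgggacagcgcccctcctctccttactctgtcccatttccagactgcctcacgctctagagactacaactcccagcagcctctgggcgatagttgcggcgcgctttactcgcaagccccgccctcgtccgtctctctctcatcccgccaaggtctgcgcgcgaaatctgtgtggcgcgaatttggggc

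Hs3st1 was the clearest of them. It encodes the sulfotransferase that adds the 3-O-sulfate of heparan sulfate, the step that makes antithrombin-binding sites. Water animals 352, 354, 355 and 356 read 9.42, 9.72, 9.82 and 10.00 (log2 signal), and air animals 321, 322, 323 and 325 read 8.80, 8.71, 9.14 and 8.81. The groups did not overlap. The level in water was 1.83-fold higher (log2 difference 0.87 ± 0.12, SE, 95% interval 0.63 to 1.12; limma adjusted p = 2.37e-05). The call held in 18 of 20 alternative fits, all but the 2 on the 16 arrays of array set 2 (adjusted p = 0.0944, and 0.624 with the RNA integrity number as a covariate, where the difference was 0.76). The 21 air animals of array set 1, at all times, lay between 8.57 and 9.07. Instilled formaldehyde animals averaged 9.72 ± 0.33, 15 ppm animals 8.93 ± 0.10, water animals 9.74 ± 0.24 and air animals 8.86 ± 0.19 (SD, n = 4 each), so the instilled groups were the high ones. Instilled formaldehyde differed from water by −0.02 (95% interval −0.26 to 0.23, limma adjusted p = 0.95). At 15 ppm the level was lower than in water by 0.81 on the log2 scale (adjusted p = 1.68e-06). Hs3st1 was named for a high level in these same water animals, so a fall from water is partly built in. Against air, 15 ppm differed by 0.07 (limma adjusted p = 0.836).

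Lig1, DNA ligase 1, joins the fragments of the lagging strand in replication. It read 8.52, 8.69, 8.59 and 8.77 in water animals 352, 354, 355 and 356, against 8.06, 8.29, 8.15 and 8.37 in air animals 321, 322, 323 and 325. The groups did not overlap, and water was 1.34-fold higher (log2 difference 0.43 ± 0.08, SE; limma adjusted p = 0.00798). Its other probe set gave 0.38 (adjusted p = 0.341). The call was lost without water animal 354 or 356 or air animal 321 or 323, with adjusted p between 0.059 and 0.174, and in the fits on the 8 arrays (adjusted p = 0.0686) and the 16 arrays (adjusted p = 0.155). Among other genes of replication, the cell cycle list had no called member, and Ccne1, cyclin E1, and Mcm6, a subunit of the replicative helicase, were 0.37 and 0.34 higher in water (limma adjusted p = 0.394 and 0.402). Lig1 averaged 8.05 ± 0.20 with instilled formaldehyde and 8.02 ± 0.09 at 15 ppm, against 8.64 ± 0.11 in water (SD, n = 4 each). Both were called lower than water (log2 differences −0.60 and −0.63, limma adjusted p = 4.72e-09 for each). Lig1 was named for a high level in these same water animals, so a fall from water is partly built in. Against air the differences were −0.17 and −0.20, and neither was called (limma adjusted p = 0.093 and 0.106).

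Ipo7, importin 7, carries ribosomal proteins and other cargo into the nucleus. It read 9.24, 9.61, 9.51 and 9.65 in water animals 352, 354, 355 and 356, against 9.13, 9.10, 9.10 and 8.88 in air animals 321, 322, 323 and 325. Water was 1.37-fold higher (log2 difference 0.45 ± 0.09, SE; limma adjusted p = 0.0365), and water animal 352, the lowest, stood just above the highest air animal. With 1 animal left out, the call held only without water animal 352 (0.54; adjusted p = 0.00355), and cyclic loess scaling between arrays gave 0.42 (adjusted p = 0.065). Ipo7 was not called on the 8 arrays (adjusted p = 0.0763) or the 16 arrays (adjusted p = 0.153). Instilled formaldehyde animals averaged 9.58 ± 0.10 and 15 ppm animals 9.34 ± 0.18 (SD, n = 4 each), and neither was called against water (adjusted p = 0.605 and 0.267). Both were called higher than air (0.53 and 0.29, limma adjusted p = 3.13e-06 and 0.0302). These comparisons use the same air animals that Ipo7 was named with, so a rise over air is partly built in. With the RNA integrity number as a covariate on the 16 arrays, Ipo7 gave 0.41 (adjusted p = 0.663) and Lig1 0.30 (adjusted p = 0.69). The called probe set with no listed gene was 0.68 ± 0.14 (SE) higher in water (adjusted p = 0.0365), with signals between 5.13 and 5.49 in water and between 4.07 and 4.91 in air. For this probe set too, instilled formaldehyde and 15 ppm were called higher than the same air animals (0.89 and 0.42, limma adjusted p = 2.04e-07 and 0.0413).

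**Figure D1:**
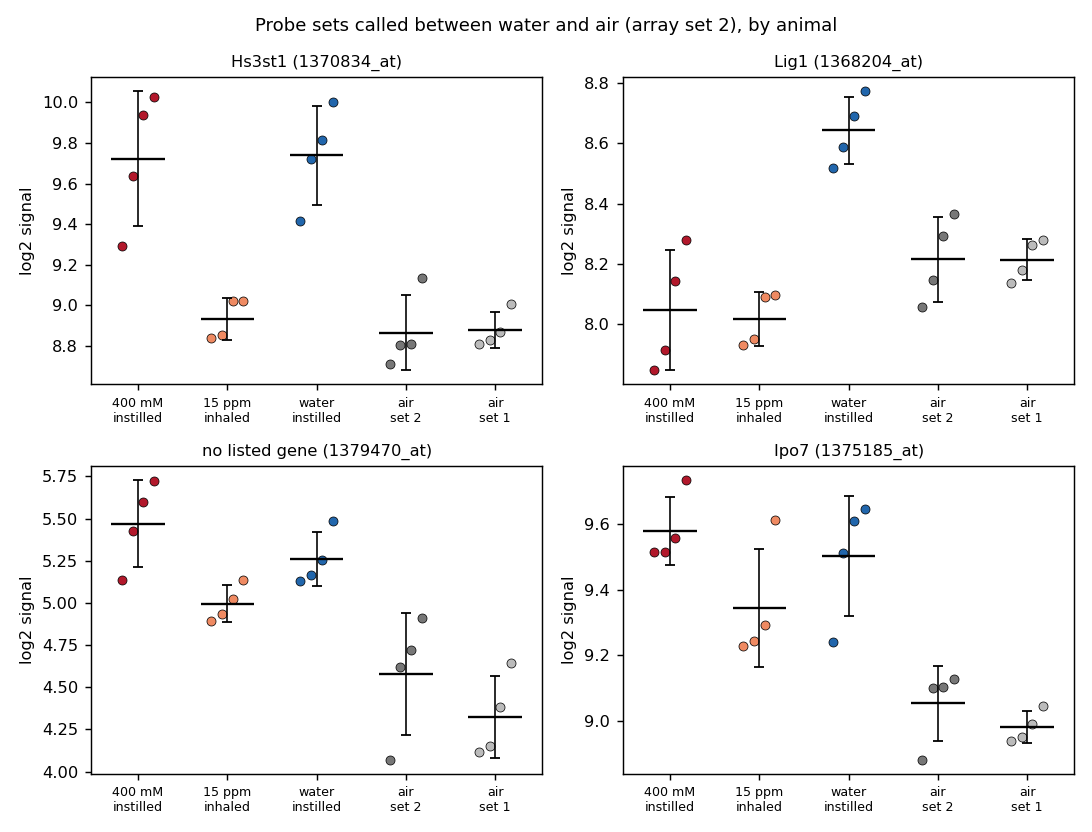
Log2 signal of the 4 called probe sets (y axis, one panel each) by group (x axis, in the order instilled formaldehyde, 15 ppm, water, air of array set 2, air at 6 h of array set 1), with a point per animal, the mean as a bar and the SD as an error bar. Hs3st1 is high in both instilled groups (9.72 with formaldehyde and 9.74 with water, against 8.86 in air), while Lig1 is highest in water at 8.64.

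With the 3 called genes counted in, 86 genes had an unadjusted p under 0.001, 78 higher and 8 lower in water, and the others did not pass the adjusted test. The largest 10 of the higher ones were Fam110c, Rnase1l2, Ier3, Hs3st1, St3gal4, Cp, Fmo5, Srsf3, Dll1 and Aqp5. On the 8 arrays alone Fam110c, Ier3, Rnase1l2 and Cp passed (limma adjusted p = 0.0224, 0.0224, 0.0266 and 0.048). On the 16 arrays none of these did (0.113, 0.0944, 0.092 and 0.13). Fam110c, a protein of the microtubule and centrosome, read 8.13 ± 0.20 in water and 6.99 ± 0.24 in air (SD, n = 4 each; log2 difference 1.14 ± 0.31, SE; limma adjusted p = 0.191). Cp, ceruloplasmin, a copper-carrying ferroxidase, read between 10.12 and 10.26 in water, against 8.89 to 9.58 in air (0.80 ± 0.23, SE; adjusted p = 0.218), and its other 2 probe sets gave 0.62 and 1.09. St3gal4, a sialyltransferase, was 0.83 ± 0.24 higher, Fmo5, a flavin monooxygenase, 0.80 ± 0.22 higher, and Dll1, a Notch ligand, 0.67 ± 0.17 higher (SE; adjusted p = 0.218, 0.197 and 0.133). Srsf3, a splicing factor, was 0.69 ± 0.16 higher (adjusted p = 0.0868), and air of array set 2 was itself 0.65 above air of array set 1 (adjusted p = 0.00819).

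Aqp5, an apical water channel of airway and gland epithelium, read 11.85, 12.30, 11.87 and 12.10 in water animals 352, 354, 355 and 356, against 11.63, 11.25, 11.34 and 11.22 in air animals 321, 322, 323 and 325. Water was 1.59-fold higher (log2 difference 0.67 ± 0.17, SE, 95% interval 0.34 to 1.00), a value that did not pass the test (limma adjusted p = 0.0978). Against water, instilled formaldehyde was lower by 0.66 (11.37 ± 0.17 against 12.03 ± 0.21, SD, n = 4 each, limma adjusted p = 0.00139) and 15 ppm by 0.98 (11.05 ± 0.27, adjusted p = 8.72e-06). Aqp5 is among the largest rises because these same water animals were high, so a fall from water is partly built in. The instilled formaldehyde mean lay within the range of the air animals (11.22 to 11.63), and the 15 ppm mean below it. Krt8, a keratin of simple epithelium, was 0.48 ± 0.10 higher in water at 12.38 ± 0.20, against 11.90 ± 0.09 in air (SD, n = 4 each), and stood just outside the threshold (adjusted p = 0.0515). It passed with cyclic loess (0.45, limma adjusted p = 0.0313), with the intensity trend (0.0481) and with probe sets of a mean log2 signal of 6 or more alone (0.033). It also passed with array weights (0.0058) and without water animal 352 (0.0325) or 355 (0.0155). The threshold was missed on the 8 arrays (0.07), on the 16 arrays (0.113) and on those 16 with the RNA integrity number as covariate (0.625). Krt8 missed it too without water animal 354 (0.294) or 356 (0.253) or air animal 321 (0.116), 322 (0.073), 323 (0.0764) or 325 (0.23). Rnase1l2, a secreted ribonuclease, was 0.98 ± 0.24 higher in water (adjusted p = 0.0978), and averaged 6.53 ± 0.21 with instilled formaldehyde and 6.31 ± 0.28 at 15 ppm, against 7.36 ± 0.19 in water and 6.38 ± 0.23 in air (SD, n = 4 each).

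All 8 genes lower in water at an unadjusted p under 0.001 missed the adjusted test, and the smallest adjusted p was that of Dnal1 (0.0635). Dnal1, a light chain of the dynein arms that move cilia, read 8.13, 7.44, 8.18 and 7.75 in water animals 352, 354, 355 and 356, against 8.48, 8.85, 8.76 and 8.36 in air animals 321, 322, 323 and 325 (log2 difference −0.74 ± 0.16, SE). Dnal1 passed without dim probe sets (limma adjusted p = 0.0446), with array weights (0.00139) and without water animal 352 (0.0321) or 355 (0.0475). The threshold was missed on the 8 arrays (0.0778), on the 16 arrays (0.113), with cyclic loess (0.065) and without water animal 354 (0.462) or 356 (0.253). Leaving out any air animal also missed it (0.0846 to 0.224). The other 2 probe sets of Dnal1 were −0.67 and −0.56, and instilled formaldehyde was a further −1.10 from water (adjusted p = 1.75e-07). Ctnnd2, a catenin of neurons, was −0.76 ± 0.20 (SE; adjusted p = 0.169), and Marcks, a protein kinase C substrate, −0.48 ± 0.14, and its other 5 probe sets ran from −0.37 to −0.03. The other 5 were Eya1 (−0.45), Cln8 (−0.33), Tdrd12 (−0.29), Stard6 (−0.28) and Prkar1a (−0.25), and the other 2 probe sets of Prkar1a gave 0.07 and 0.03.

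**Figure D2:**
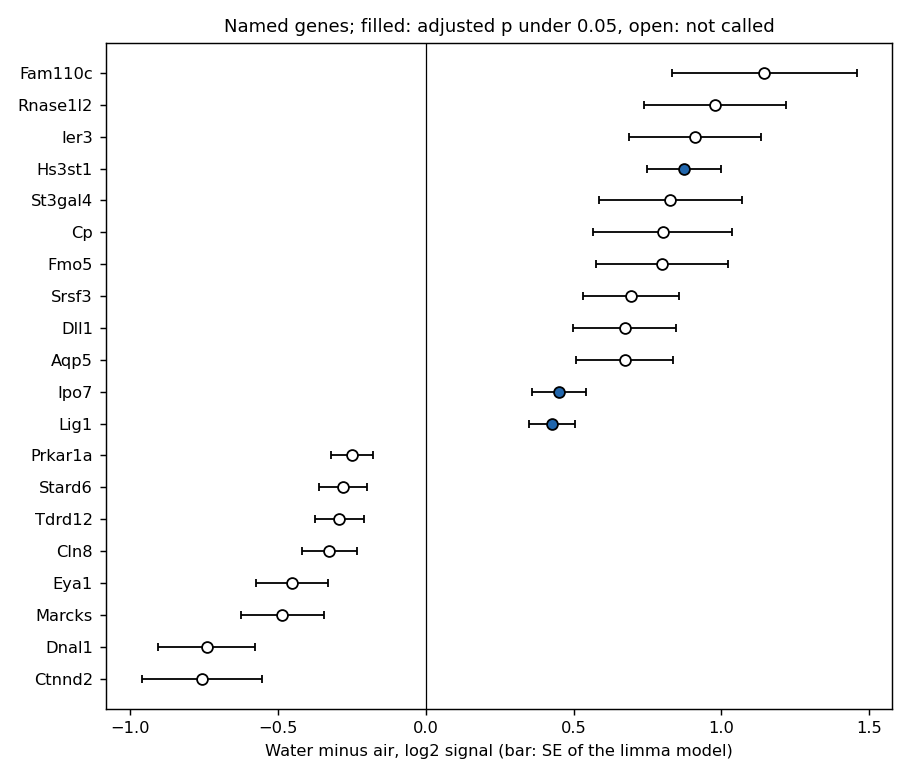
Log2 difference, water minus air (x axis), with the model's SE as a bar, for the 3 called genes and the genes with the largest differences in each direction at an unadjusted p under 0.001. The points of Hs3st1, Lig1 and Ipo7 are filled as called, all others are open, and Fam110c has the largest difference at 1.14.

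No member of any of the 36 gene lists was called. The lists held 666 different genes, of which 85 were higher and 24 lower in water at an unadjusted p under 0.05, and the smallest adjusted p among them was that of Krt8. Over all 14217 genes 12.8% had an unadjusted p under 0.05, 8.83% higher and 3.95% lower, and the median log2 difference was 0.02. Ribosome biogenesis genes, which build the ribosome in the nucleolus, had 9 of 25 higher at an unadjusted p under 0.05 (36%), 25 of 25 with a higher mean, 11 of 25 not overlapping (12.7% of all genes) and a median of 0.20. The smallest p in the list were those of Nop16, a nucleolar protein, with 0.33 (adjusted p = 0.232), and Fbl, the methyltransferase fibrillarin, with 0.39 (adjusted p = 0.242). The genes that brake NF-kappaB and cytokine signals had 6 of 17 higher, none lower and a median of 0.26, and included Nfkb2, an NF-kappaB subunit, with 0.55 (adjusted p = 0.281), and Bcl3, its nuclear partner, with 0.88 (adjusted p = 0.326).

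The immediate early genes, first to respond to a stimulus, had 6 of 29 higher and none lower at an unadjusted p under 0.05. This was 20.7%, against 12.8% of all genes, and the list median was 0.24. Ier3, an early survival gene, read 10.58, 10.52, 10.36 and 10.56 in water animals 352, 354, 355 and 356, against 9.54, 9.82, 9.70 and 9.32 in air animals 321, 322, 323 and 325. Its log2 difference was 0.91 ± 0.22 (SE; limma adjusted p = 0.0978), and Myc, a growth regulator, gave 0.74 ± 0.27 (adjusted p = 0.339). These values depended on which air animals were used: 11 of 29 immediate early genes were called lower in air of array set 2 than in air of array set 1 (3.22% of all genes, with 2.19% higher and 5.42% in all), among them Fos (−1.13; adjusted p = 4.74e-08), Atf3 (−2.43; adjusted p = 2.01e-07), Fosb (−2.07; adjusted p = 5.04e-06) and Ier3 (−0.76; adjusted p = 0.0294). Fos, a partner in the AP-1 factor, averaged 11.92 ± 0.19 in water, 11.69 ± 0.33 in air of array set 2 and 12.82 ± 0.11 in air of array set 1 at 6 h (SD, n = 4 each). Its water minus air difference was 0.23 with air of array set 2 and −0.90 with air of array set 1. Hspa1a, an inducible heat shock chaperone, Cebpd, an acute phase regulator, and Idi1, a sterol synthesis enzyme, gave 0.56, 0.66 and 0.26 with air of array set 2, and −0.71, −0.62 and −0.49 with air of array set 1. With the air of array set 1, 9 immediate early genes were called lower in water and none higher, against 2.74% and 4.53% of all genes in that fit, and the list median was −0.35. The medians of several other lists also turned sign there. Among them were the inflammatory (−0.13), basal and squamous (−0.16), stroma and vessels (−0.51, from 0.08), skeletal muscle (−0.23, from 0.17) and circadian clock (0.17, from −0.01) lists. Those of the ciliated and heat shock lists were 0.01 and −0.0006, and that of ribosome biogenesis was 0.18.

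The 14 heat shock chaperones had 4 higher and none lower at an unadjusted p under 0.05 (28.6%, against 12.8% of all genes). The 4 were Hspb8 (0.45), Hspe1 (0.21), Hspa1a (0.56) and Bag3 (0.42). Hspa1a read 11.29, 11.47, 10.93 and 11.05 in water animals 352, 354, 355 and 356, against 10.76, 10.66, 10.47 and 10.60 in air animals 321, 322, 323 and 325 (adjusted p = 0.281). The glucocorticoid-responsive list had 1 of 19 higher, Cebpd, and 1 lower, Mt1, a metallothionein (−0.39, limma adjusted p = 0.238). Together these were 10.5% of the list, below the 12.8% of all genes. Fkbp5 and Tsc22d3, induced by the stress hormone, gave −0.36 and −0.01 with overlapping groups (adjusted p = 0.553 and 0.992). Among the inflammatory mediators Cxcl1, a neutrophil attractant, was the only 1 of 28 at an unadjusted p under 0.05 (3.57%, below the 12.8% of all genes). Its difference was 0.97 ± 0.44 (SE, limma adjusted p = 0.436). Cxcl1 read 7.37, 5.99, 7.28 and 6.27 in water animals 352, 354, 355 and 356 and 5.36 to 6.09 in air, so that the groups overlapped. In 6 of 28 mediators, none of them Cxcl1, all water animals lay above all air animals, against 7.77% of all genes. The list mean lay between 6.21 and 6.32 in water and between 6.00 and 6.14 in air, and between 6.01 and 7.05 in the 21 air animals of array set 1. Il6, a fever cytokine, gave 0.25 (adjusted p = 0.794). For comparison, 24 of 28 of these mediators rose with instilled formaldehyde over water and 7 with 15 ppm over water, against 11.1% and 4.78% of all genes.

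The osmotic, ion and water transport list had 5 of 26 higher and none lower at an unadjusted p under 0.05 (19.2%, against 12.8% of all genes). The 5 were Aqp5, Scnn1a, a sodium channel subunit (0.65), Trpv4, an osmosensitive calcium channel (0.47), Piezo1, a stretch-sensitive channel (0.45), and Clca2, a chloride channel regulator (0.59). Their adjusted p lay between 0.0978 and 0.473, and the median of all 26 was 0.03, between 0.02 and 0.07 with 1 animal left out. Oxidative defence had 3 of 20 genes higher and none lower at an unadjusted p under 0.05 (15%, against 12.8% of all genes), 8 of 20 with all water animals above all air animals (against 7.77%) and a median of 0.20. Hmox1, which breaks down heme, gave 0.41 (adjusted p = 0.546), against a rise of 3.15 with instilled formaldehyde over water (adjusted p = 7.95e-19).

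**Figure D3:**
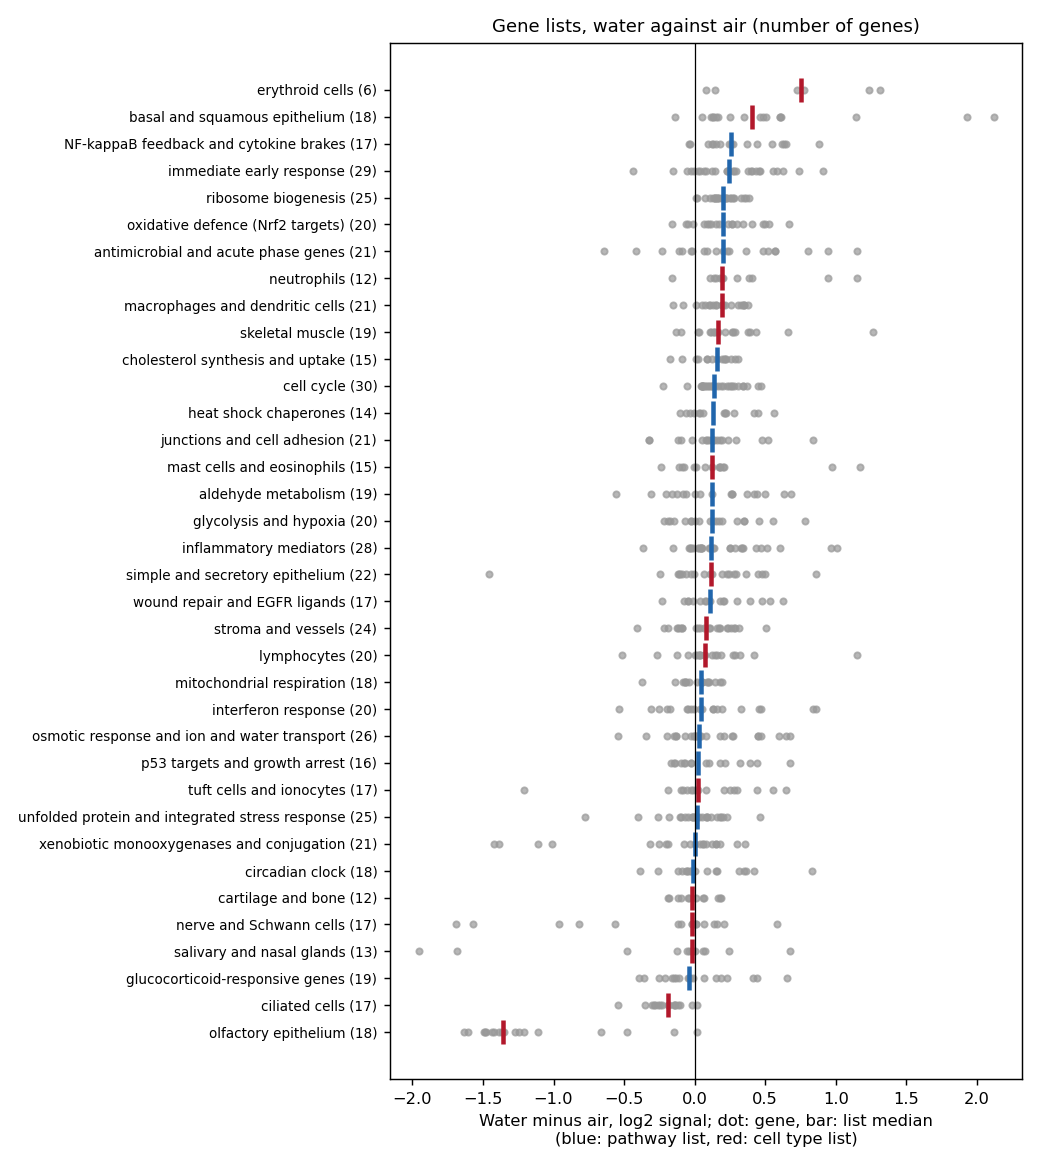
Log2 difference, water minus air (x axis), for each gene of the 36 lists (grey dots, one row per list with its number of genes), and the list median (blue bar for pathway lists, red for cell type lists). The olfactory list stands at −1.36 and the erythroid list at 0.75, with the other medians between −0.19 and 0.41.

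Of the 36 lists the olfactory one had the median farthest from 0, and none of its genes passed the test. Its 18 genes had a median of −1.36, 14 of 18 were lower at an unadjusted p under 0.05 (against 3.95% of all genes), and in 10 of 18 all water animals lay below all air animals (against 4.91% of all genes), none of them called. Gnal, the G protein of olfactory neurons, read 10.19, 8.24, 10.04 and 9.95 in water animals 352, 354, 355 and 356, against 11.72, 11.09, 10.55 and 11.47 in air animals 321, 322, 323 and 325 (log2 difference −1.60 ± 0.58, SE; limma adjusted p = 0.331). Water animal 354 stood apart from its group. Cyp2g1, a monooxygenase of the olfactory mucosa, was −1.38 ± 0.49 (adjusted p = 0.33), and Omp −1.44 ± 0.52 (adjusted p = 0.334). In these bulk samples fewer cells of a type and less RNA per cell cannot be told apart.

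By animal, the mean log2 signal of the olfactory list was 8.86, 7.26, 8.71 and 8.71 in water animals 352, 354, 355 and 356, against 9.87, 9.49, 9.03 and 9.75 in air animals 321, 322, 323 and 325. The groups did not overlap. The list's median difference was −0.87 without water animal 354 and between −1.20 and −1.57 without any of the other 7. Instilled formaldehyde animals were between 7.55 and 8.24, 15 ppm animals between 8.61 and 10.18 and the 21 air animals of array set 1 between 8.81 and 10.70. The water group's median was the second lowest of the 24 groups, above instilled formaldehyde alone. Over all genes, 34 were at least 2-fold higher and 115 at least 2-fold lower in water, none of them called, and 14 of the 115 were in the olfactory list. Fitted with the olfactory list mean as a covariate, 6 probe sets were called, Hs3st1 and Lig1 among them (0.80 and 0.37; adjusted p = 0.000505 and 0.0466), and Ipo7 was not (0.39; adjusted p = 0.11). In that fit the medians of the ribosome biogenesis, immediate early, NF-kappaB brake and erythroid lists were 0.07, 0.04, 0.02 and 0.54.

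The erythroid list had 4 of 6 genes higher at an unadjusted p under 0.05 (against 8.83% of all genes), none called and a median of 0.75. In 2 of 6 all water animals lay above all air animals, against 7.77% of all genes. Its list means overlapped, at 8.34 to 9.25 in water and 7.73 to 8.38 in air. Hemgn, a factor of red cell precursors, gave 1.23 ± 0.37 and Ahsp, a hemoglobin chaperone, 1.31 ± 0.41 (SE; limma adjusted p = 0.229 and 0.238), and water animal 356 read highest for both. The dissected noses had been rinsed of blood. Hbb, a hemoglobin chain, lay between 14.10 and 14.56 in all 8 animals, near the top of the signal scale. Alas2, another red cell marker, ranged more widely, between 9.80 and 11.69 in the same 8 animals. Both markers were chosen after their values were seen, and whether blood content differed between the groups was not tested. Ciliated genes had 16 of 17 with a lower mean in water, a median of −0.19 (−0.12 without water animal 352) and no gene at an unadjusted p under 0.05. In 4 of 17 all water animals lay below all air animals, against 4.91% of all genes. Dnal1, described above, is not in this list. The largest difference in the list was that of Rfx3, a regulator of cilia genes (−0.55, limma adjusted p = 0.56). Its other probe set, with a mean signal of 3.52, gave 0.05. Neutrophil genes had a median of 0.20, and S100a8, a calprotectin subunit, was 1.15 ± 0.55 higher (adjusted p = 0.463). The summed linear signal of the list was 15152 to 26046 with instilled formaldehyde, 5766 to 7692 in water and 4589 to 6187 in air. Basal and squamous genes had 17 of 18 with a higher mean, a median of 0.41 (0.16 without air animal 325) and none at an unadjusted p under 0.05, and Krt5, a basal keratin, gave 0.25 (adjusted p = 0.776). The simple and secretory list had 13 of 22 genes with a higher mean, 9 with a lower mean and a median of 0.12. Its differences ran from −1.46 to 0.86, the largest rise being that of Muc1, a membrane mucin (0.86 ± 0.29, SE, limma adjusted p = 0.281).

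**Figure D4:**
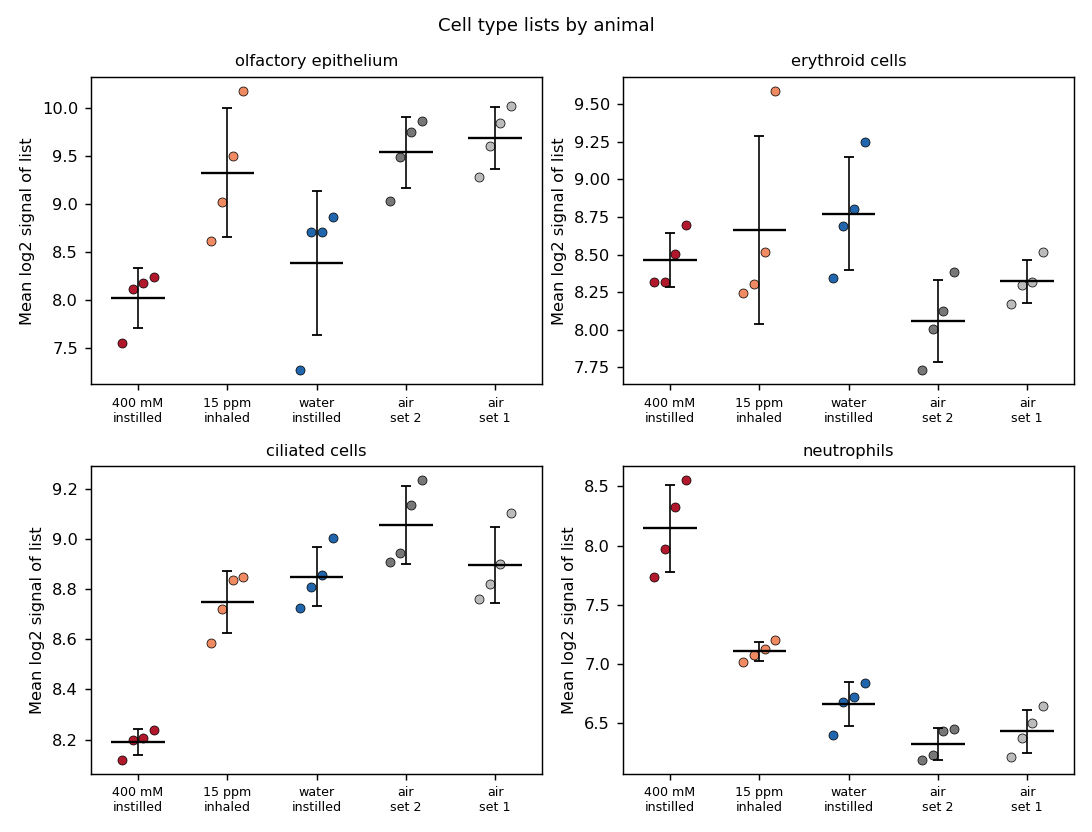
Mean log2 signal of 4 cell type lists (y axis, one panel each) by group (x axis), with a point per animal, the mean as a bar and the SD as an error bar. The olfactory mean lies between 7.26 and 8.86 in water and between 9.03 and 9.87 in air, and the neutrophil mean is highest with instilled formaldehyde.

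Water was also the reference of formaldehyde, and these comparisons share the water animals with those above, so their values are given only side by side. Instilled formaldehyde over water called 6892 probe sets (22.2%), 3052 higher (9.83%) and 3840 lower (12.4%). At the level of genes that was 26.3%, with 11.1% higher and 15.1% lower. Against water, 15 ppm called 4240 probe sets (13.7%), 1572 higher (5.06%) and 2668 lower (8.59%), or 16.8% of genes, 4.78% higher and 12% lower. After cyclic loess the instilled formaldehyde split was 3380 higher and 2947 lower, so that its balance turned to higher, and the 15 ppm split was 1763 higher and 1886 lower, and without water animal 354 the count was 2709. The 15 ppm comparison also differs from water in route. Genes higher in water than in air went either way with instilled formaldehyde over water. Fam110c was a further 1.35 higher (limma adjusted p = 0.000572) and Ier3 1.40 higher (8.16e-07). Cp was 0.72 lower (0.0178) and Rnase1l2 0.83 lower (0.00648). All were named for a high level in the same water animals, so a fall from water is partly built in. St3gal4 and Fmo5 differed from water by −0.09 and −0.13 with instilled formaldehyde (adjusted p = 0.846 and 0.742), while 15 ppm was −1.11 and −0.47 from water (adjusted p = 0.000568 and 0.165). Air of array set 2 differed from air of array set 1 at 1460 probe sets (4.7%), 774 higher (2.49%) and 686 lower (2.21%), and after cyclic loess 615 were higher and 834 lower. Without air animal 323 the count was 883, and without air animal 325 it was 969.

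**Figure D5:**
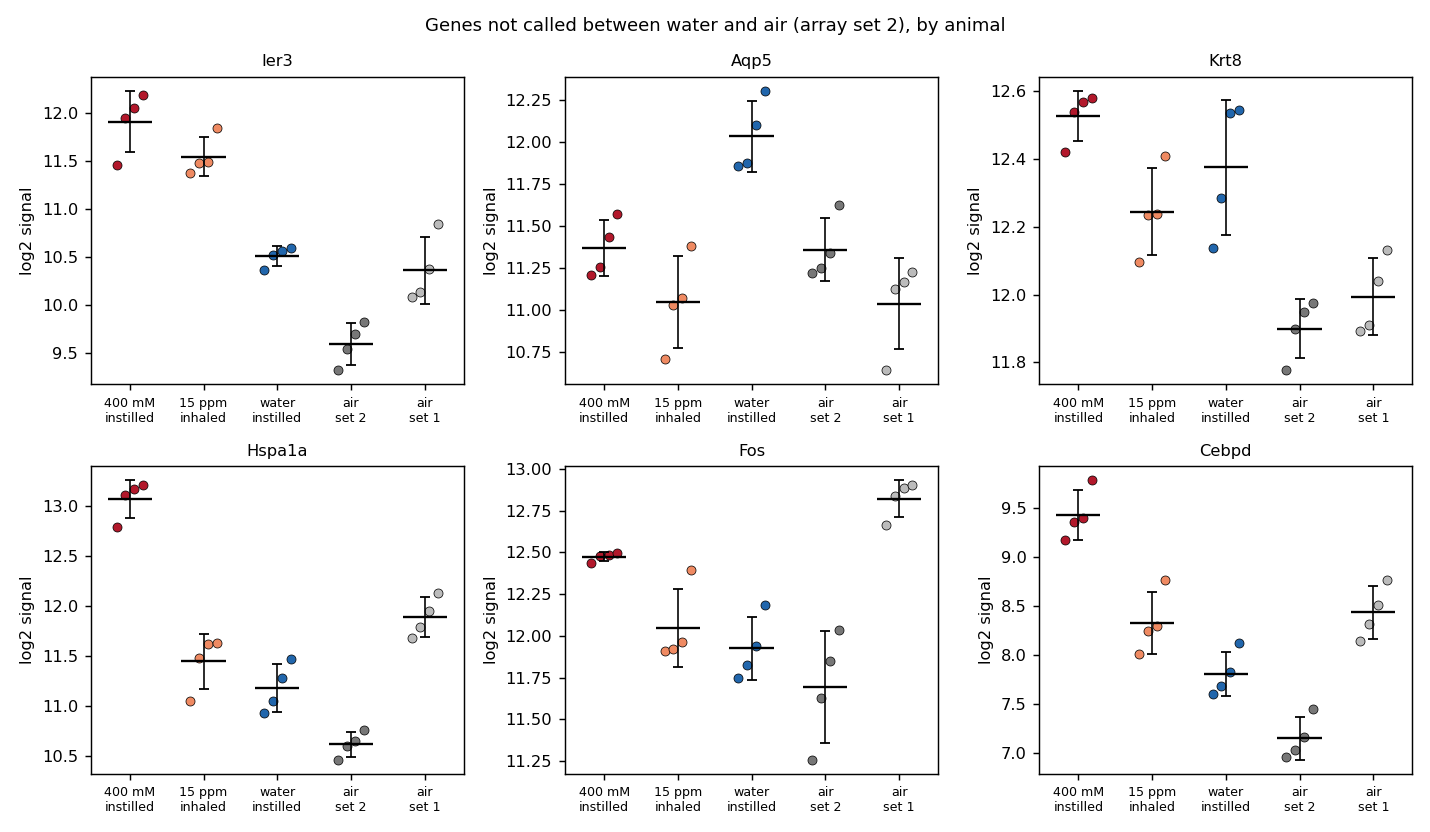
Log2 signal of 6 genes not called between water and air (y axis, one panel each) by group (x axis), with a point per animal, the mean as a bar and the SD as an error bar. Aqp5 is highest in water at 12.03, and Fos, Hspa1a and Cebpd are higher in air of array set 1 than in water.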

How the data were processed

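The deposited table held log2 values of 31099 probe sets on 98 arrays, normalized by the authors by a method that the sources used here do not name. The values lay between 2.67 and 14.83, which shows a log2 scale. RNA came from a Qiagen micro RNA kit and was labelled by a standard Affymetrix protocol, per the labels. The 57 control probe sets were left out. Symbols came from the array annotation, updated to RefSeq (GRCr8): 20826 probe sets had 1 symbol, 436 several and 9780 none, and each of 14217 genes was read from its brightest probe set on average (4525 had more than 1).

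limma 3.58.1 (R 4.3.3) fitted 24 groups of 4 or 5 animals with 74 residual degrees of freedom and Benjamini-Hochberg adjustment over 31042 probe sets. All tests were two-sided. Python 3.11.15 with scipy 1.17.1, pandas 2.3.3, numpy 2.4.6 and matplotlib 3.10.9 did the rest. The code was tested on simulated data. Precision is limited by how many animals there are. Every animal is a separate replicate, per the labels.

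The members, lists and rules were chosen with earlier results of these data known. Named genes (98) were called genes with non-overlapping groups, up to 10 rises and 10 falls at an unadjusted p under 0.001 (10 and 8 were named), from each list the pair with the smallest p, the members that spell out small list counts, and Fkbp5, Tsc22d3, Per1, Fos, Hmox1, Hspa1a, Cxcl1, Il6, S100a8, Areg, Krt5, Foxj1, Epcam and Aqp5. Omp, Atf3, Fosb and the markers Krt15, Hbb, Alas2, Scgb1a1, Bpifa1, Muc5ac, Myh4, Ckm, Acta1, Col1a1, Col3a1 and Dcn were chosen after their values were seen. So were 2 alternatives, the olfactory covariate and the fit without water animal 354 and air animal 325. Alternatives were other sample sets, cyclic loess, an intensity trend, a robust prior, a filter on dim probe sets, array weights, air of the first array set, covariates and each animal left out.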

Additional observations from a re-analysis of the deposited data

Results flagged for a closer look

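Each water and air group of 4 was examined for a lone animal far from the other 3, in the 98 named genes, the RNA integrity number and OD260. A value is listed where its gap to the nearest other animal, as a share of the group's range, exceeded Dixon's critical value. Chance alone gives about 1 in 20 groups, and 18 were listed, 17 of them among 196 gene groups.

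Water animal 354 was listed 5 times. It was lowest for Gnal (8.24, others 9.95 to 10.19), Cyp2g1 (9.72, others 11.87 to 12.27) and Stmn2, a neuronal protein (6.52, others 8.97 to 9.24), and highest for Tef, a circadian factor (8.999, others 8.55 to 8.58), and Idi1 (10.69, others 10.36 to 10.41). Its olfactory list mean was 7.26, the lowest of the 8. Air animal 325 was lowest for Ipo7 (8.88, others 9.10 to 9.13) and Idi1 (9.83, others 10.29 to 10.36), and highest for Fn1, fibronectin (8.61, others 8.12 to 8.20).

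Air animal 321 was lowest for Cp (8.89, others 9.47 to 9.58) and C3, a complement component (11.63, others 12.00 to 12.07), and highest for Mcm6 (7.03, others 6.81 to 6.85). Water animal 352 was highest for Eno3, a muscle enolase (6.44, others 5.95 to 5.98), and Stard6 (4.34, others 3.83 to 3.91), and lowest for Per1, a clock gene (8.78, others 8.95 to 8.97), and its RNA integrity number, 7.5, was lowest in its group. Water animal 356 was highest for Gstt1, a glutathione transferase (7.79, others 7.45 to 7.49), water animal 355 was lowest for S100a8 (8.53, others 9.35 to 9.48), and air animal 323 was lowest for Rnase1l2 (6.04, others 6.48 to 6.54).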

How the results depend on the processing

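Calls numbered 129 (67 higher, 62 lower) on the 8 arrays, 0 in limma on the 16 arrays and 0 with the RNA integrity number as covariate (3723 and 2214 at an unadjusted p under 0.05), 10 (9 higher, 1 lower) without dim probe sets, 352 (257 and 95) with array weights, 462 (360 and 102) against air of both array sets, 2002 (1344 and 658) against air of array set 1, and 2 (2 higher) without water animal 354 and air animal 325. Cyclic loess, the intensity trend and the robust prior gave 5, 5 and 4, and 60.5% of probe sets at an unadjusted p under 0.05 were higher, against 55.1% after cyclic loess. Leaving out 1 animal gave 1 to 15 calls, 1 to 13 of them higher and 0 to 2 lower, with 15 without water animal 352, 1 without water animal 354 or 356 or air animal 321, and 2 without air animal 322 or 325. Signs turned against air of array set 1 for Fos (−0.90), Hspa1a (−0.71), Cebpd (−0.62) and Idi1 (−0.49). The cause of these shifts was not tested. With 1 water animal left out, instilled formaldehyde over water gave 5760 to 6578 calls, against 6892 in the main fit. In the same way 15 ppm over water gave 2709 (without water animal 354) to 4170, against 4240. Air of array set 2 over air of array set 1 gave 883 to 1125 with 1 air animal left out (883 without 323, 969 without 325). No paired analysis was possible because water and air animals are different rats with no number in common. With 4 animals a group the median SE was 0.11 in log2, so small differences are not detectable.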
